A study of Mus musculus with 6 samples.

Results

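Hypoxia targets and glycolysis genes were followed as 35 listed genes among 55357 Ensembl genes in a deposited TPM table (abundance per transcript length, scaled so that each library has one common total). A row was taken where its gene symbol equalled a listed symbol. Aldoa had 2 such rows, and the one with the higher mean was used, at 938 TPM over the 6 tumours against 1.11 TPM for the other row. The members are 14 glycolytic enzymes, 20 other genes that hypoxia-inducible factor (HIF) is known to induce, and Hif1a. The last encodes an oxygen-regulated subunit of HIF itself. All 35 averaged 1 TPM or more across the tumours and were tested.

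FA and PBS groups of subcutaneous tumours were compared, all grown in C57BL/6J mice from an injection of 250000 KPC1242 cells, a mouse line of pancreatic ductal adenocarcinoma. The FA group (3 tumours) came from mice given 2 mg folinic acid, a reduced folate, by gavage each day from day 8 to day 12. The PBS group (3 tumours) came from mice gavaged with phosphate-buffered saline on the same days, and every tumour was collected on day 14. A single transplanted line under the skin is one tumour genotype in a site other than the pancreas, and neither tumour size nor oxygen was given in the sources used here. Nothing in the labels says outright that the tumours came from separate mice, so p-values measure the spread between these 6 tumours, which may be partly technical. The sample descriptions carry one prefix for all FA tumours and another for all PBS tumours, so treatment and whatever that prefix records cannot be told apart.

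When oxygen is short, prolyl hydroxylases stop marking the HIF alpha subunit for destruction, and stabilised HIF raises the transcription of genes for glucose uptake, glycolysis, lactate export, angiogenesis and mitophagy. Pancreatic ductal tumours are known for sparse vessels and low oxygen. HIF is controlled mainly at the protein level, so the mRNA of Hif1a does not report its activity, whereas the mRNAs of its targets respond to it.

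All 10 epithelial markers checked were detected, though Cldn4 had only 1.27 to 6.88 TPM. Krt19, a ductal keratin that goes with the ductal label, was at 1177, 1248 and 1312 TPM in the FA group against 1071, 1186 and 1090 TPM in the PBS group. FA replicate 3 stood apart over all genes, with a correlation of log2 values across genes of 0.949 to 0.968 with the other tumours. It also had the highest sums of endothelial, fibroblast, macrophage, neutrophil and skeletal muscle markers. Endothelial markers summed to 142, 184 and 497 TPM in the FA group against 235, 159 and 184 TPM in the PBS group, and fibroblast markers to 2460, 3011 and 7335 TPM in the FA group against 4192, 2395 and 3141 TPM in the PBS group. Skeletal muscle markers summed to 12.9, 150.0 and 1357 TPM in the FA group against 199, 15.0 and 142 TPM in the PBS group. Whole-tumour RNA cannot tell fewer cells of a type from less RNA per cell.

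HIF binds DNA at a short core, ACGTG or GCGTG, and the first listed promoter of each of 9 members described closely below is shown for that reason, with or without a match. Promoter sequences (300 bases, 250 before to 50 after a start, RefSeq, GRCm38.p6) were found for 33 of 35 members, with 48 starts in all. The core was searched on both strands, so a CACGTG counts on each. At least 1 match lay in 38 of 48 member promoters (79.2%) and in 43.8% of 32851 promoters of any gene. By gene, 31 of 33 members had a match at some start, against 46.7% of 27025 genes. Windows of one gene can overlap and hold the same matches, as for Eno1 and Aldoa, so the 48 are not separate. The list itself holds genes known to be induced by HIF, so these shares are a description and not a test. Member promoters were also richer in G and C, with a median of 64.0% against 52.7%, and the core is itself rich in these bases. Tpi1 and Gpi1 had none at any start, and Vegfa had none at its first start and 2 at its other one. Capitals mark the matches in the following sequences, each 5′ to 3′ along its gene's strand.
Ankrd37: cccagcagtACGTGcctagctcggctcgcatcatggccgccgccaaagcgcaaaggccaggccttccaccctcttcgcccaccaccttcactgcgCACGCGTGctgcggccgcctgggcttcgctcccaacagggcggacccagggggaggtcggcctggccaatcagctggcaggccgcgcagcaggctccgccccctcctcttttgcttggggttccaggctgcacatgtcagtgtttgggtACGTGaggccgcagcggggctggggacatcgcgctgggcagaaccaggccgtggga
Bnip3: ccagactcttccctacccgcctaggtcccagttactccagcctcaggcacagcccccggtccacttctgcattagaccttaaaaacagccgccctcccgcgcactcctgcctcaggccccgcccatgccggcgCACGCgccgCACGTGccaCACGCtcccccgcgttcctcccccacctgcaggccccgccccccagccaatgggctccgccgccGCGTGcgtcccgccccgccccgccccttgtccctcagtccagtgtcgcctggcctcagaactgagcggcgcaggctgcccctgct
Car9: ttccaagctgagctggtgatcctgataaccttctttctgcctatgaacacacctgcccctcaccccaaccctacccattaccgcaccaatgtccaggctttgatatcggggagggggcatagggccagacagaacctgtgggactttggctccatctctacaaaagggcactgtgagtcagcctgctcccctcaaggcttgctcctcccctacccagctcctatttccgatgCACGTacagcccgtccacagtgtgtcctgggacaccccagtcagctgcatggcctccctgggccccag
Slc2a1: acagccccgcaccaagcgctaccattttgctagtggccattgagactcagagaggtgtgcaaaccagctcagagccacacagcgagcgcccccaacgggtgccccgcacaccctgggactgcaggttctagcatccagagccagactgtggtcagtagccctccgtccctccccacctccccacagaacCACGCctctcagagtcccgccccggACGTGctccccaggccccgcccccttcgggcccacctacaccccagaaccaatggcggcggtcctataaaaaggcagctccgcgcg
Ldha: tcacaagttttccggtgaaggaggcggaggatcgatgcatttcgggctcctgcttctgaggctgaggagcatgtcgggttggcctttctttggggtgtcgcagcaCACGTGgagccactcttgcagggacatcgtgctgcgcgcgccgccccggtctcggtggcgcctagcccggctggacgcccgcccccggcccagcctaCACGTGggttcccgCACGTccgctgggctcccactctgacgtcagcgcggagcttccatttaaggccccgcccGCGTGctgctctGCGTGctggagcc
Pgk1: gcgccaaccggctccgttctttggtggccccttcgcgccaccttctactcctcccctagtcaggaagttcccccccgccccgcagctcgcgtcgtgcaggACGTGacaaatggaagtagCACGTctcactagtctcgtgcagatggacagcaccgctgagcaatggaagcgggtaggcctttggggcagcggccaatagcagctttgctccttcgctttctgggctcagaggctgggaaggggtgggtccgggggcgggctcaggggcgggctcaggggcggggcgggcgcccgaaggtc
Vegfa: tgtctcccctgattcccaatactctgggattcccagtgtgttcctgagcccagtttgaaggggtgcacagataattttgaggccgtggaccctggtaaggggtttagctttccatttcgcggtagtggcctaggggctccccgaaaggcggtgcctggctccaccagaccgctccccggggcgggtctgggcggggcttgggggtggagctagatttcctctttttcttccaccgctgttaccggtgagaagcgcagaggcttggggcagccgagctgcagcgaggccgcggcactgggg
Egln3: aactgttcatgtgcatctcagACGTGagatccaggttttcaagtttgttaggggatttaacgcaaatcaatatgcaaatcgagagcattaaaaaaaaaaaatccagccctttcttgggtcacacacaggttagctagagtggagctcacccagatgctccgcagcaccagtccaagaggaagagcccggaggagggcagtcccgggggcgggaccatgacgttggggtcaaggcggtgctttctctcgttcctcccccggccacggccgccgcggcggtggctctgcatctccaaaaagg
Hif1a: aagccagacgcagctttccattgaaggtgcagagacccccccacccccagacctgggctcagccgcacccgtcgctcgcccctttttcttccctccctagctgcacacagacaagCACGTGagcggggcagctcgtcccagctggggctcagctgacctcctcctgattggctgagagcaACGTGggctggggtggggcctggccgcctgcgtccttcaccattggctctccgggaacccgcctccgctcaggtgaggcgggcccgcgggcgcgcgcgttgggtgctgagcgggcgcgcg
These lie at chr8:45999801-46000100 (minus strand) for Ankrd37, chr7:138909457-138909756 (minus) for Bnip3, chr4:43506776-43507075 (plus) for Car9, chr4:119108495-119108794 (plus) for Slc2a1, chr7:46845554-46845853 (plus) for Ldha, chrX:106186850-106187149 (plus) for Pgk1, chr17:46032328-46032627 (minus) for Vegfa, chr12:54203825-54204124 (minus) for Egln3 and chr12:73907617-73907916 (plus) for Hif1a. In these windows Ldha had 7 matches, Bnip3 5, Ankrd37 4, Hif1a 3, Slc2a1 and Pgk1 2 each, Car9 and Egln3 1 each and Vegfa 0. A match is a run of letters and not a shown binding site.

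Across the 35 members the FA tumours fell on both sides of the PBS tumours. FA replicate 1 was above all 3 PBS tumours for 26 members (26.2% of all 15023 genes tested), and FA replicate 2 was below all 3 PBS tumours for 34 members (19.4% of all genes). FA replicate 3 was below all 3 PBS tumours for 24 members (40.4% of all genes), and for those same 24 both FA replicate 2 and FA replicate 3 were below (9.69% of all genes). Every member had more TPM in FA replicate 1 than in FA replicate 2, as had 50.1% of all genes. The highest of the 6 values was in FA replicate 1 for 24 members (18.9% of all genes), and the lowest was in FA replicate 2 for 22 members (9.71%) and in FA replicate 3 for 12 (37.5%). The members share their libraries, so these counts describe 6 tumours and not 35 separate observations.

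**Figure D1:**
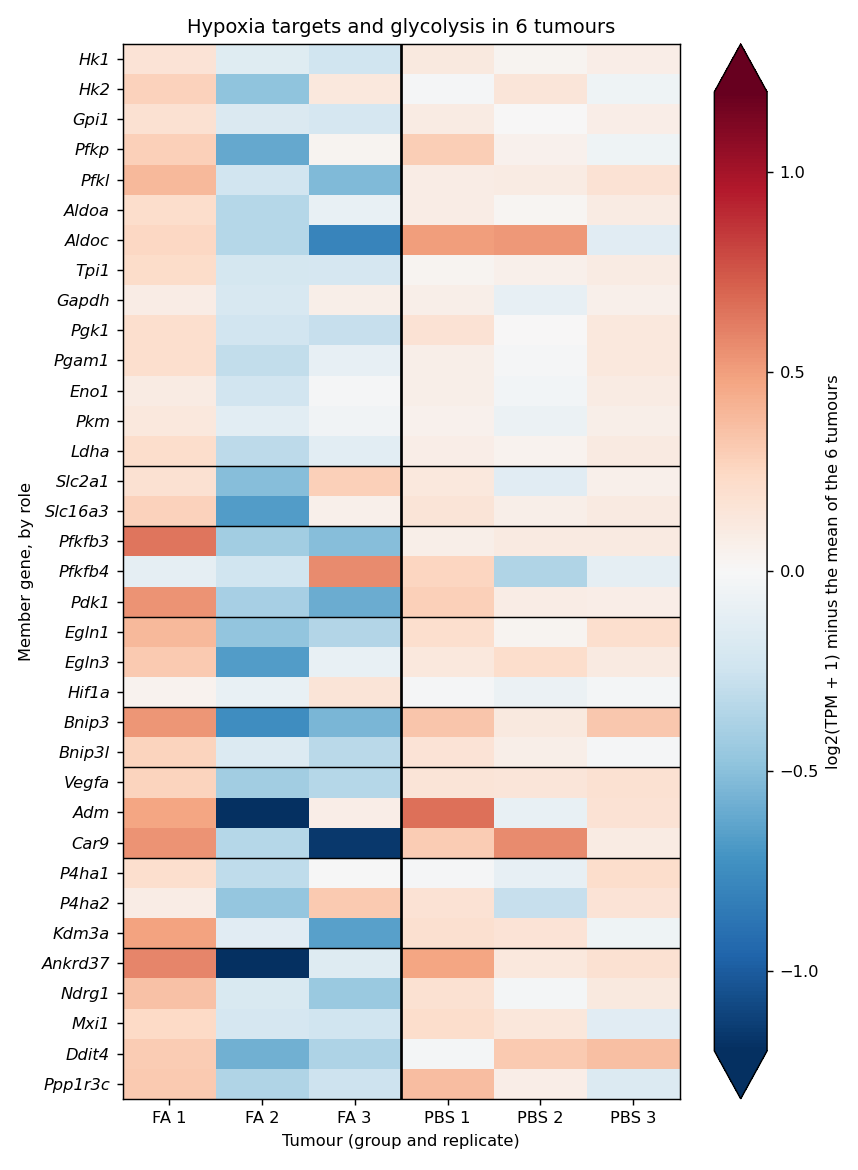
Deviation of log2(TPM + 1) from the mean of the 6 tumours (colour; values beyond the scale ends are shown in the end colour) for each member (rows, in blocks by role) in each tumour (columns, FA left of PBS). FA replicate 1 is above the mean for nearly every gene and FA replicate 2 below it, while the 3 PBS tumours lie close together.

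No member differed between FA and PBS past the threshold. By limma with Benjamini-Hochberg adjustment over all genes tested, 0 members were higher and 0 lower at an adjusted p under 0.05, as were 0.0% of all genes in each direction. At an unadjusted p under 0.05 there were also 0 members, against 0.592% of all genes lower and 0.686% higher in FA. The smallest unadjusted p of a member was 0.0871 (Aldoc, adjusted p = 1.0). The FA and PBS values overlapped for all 35 members, whereas they did not overlap, with FA lower, for 2.22% of all genes and, with FA higher, for 2.48%. Of the 35 members, 33 had a log2 difference below 0 (49.3% of all genes), the exceptions being Pfkfb4 and Hif1a. The median log2 difference was -0.18 over the members and 0.00 over all genes tested.

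**Figure D2:**
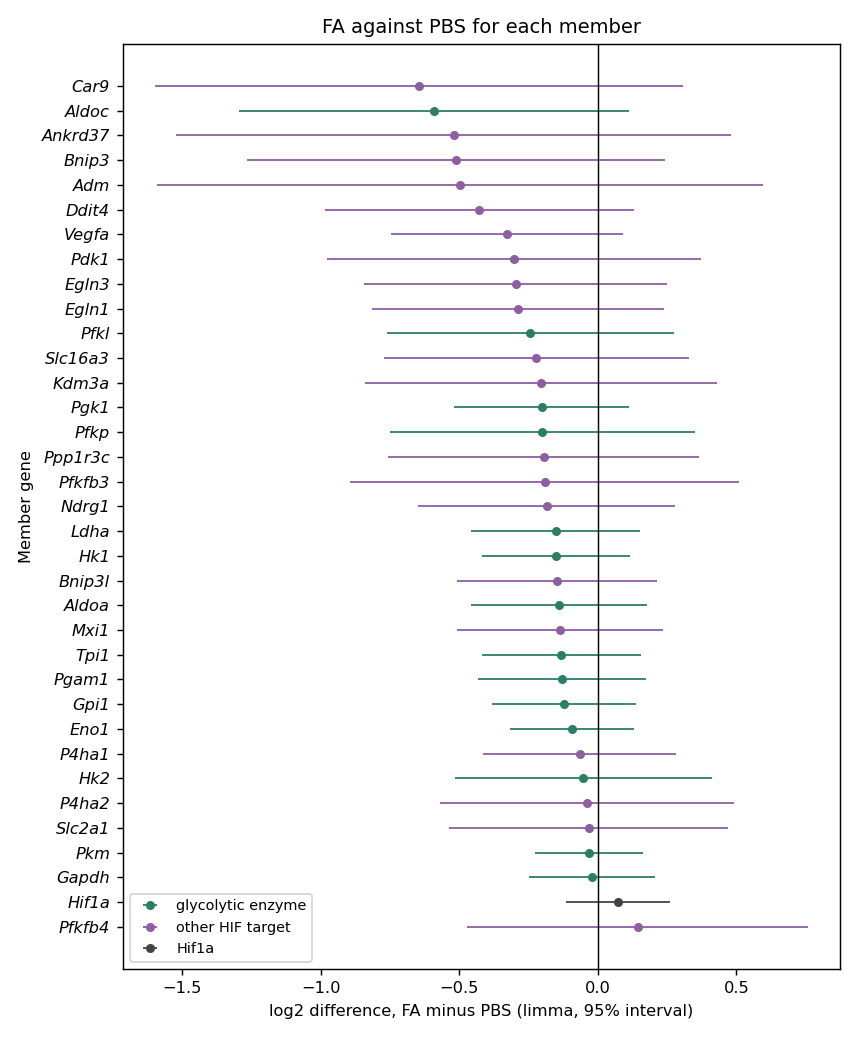
Log2 difference of FA minus PBS (horizontal axis, limma estimate with its 95% interval, n = 3 tumours each) for each member (vertical axis), with glycolytic enzymes, other HIF targets and Hif1a in separate colours. All 35 intervals include 0, and 33 estimates lie below it.

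The distance between the groups depended on which FA tumours were included. Leaving out FA replicate 1 moved the median log2 difference of the members to -0.35, and 21 members, all lower in FA, then had an unadjusted p under 0.05, where 2.06% of all genes did in that direction. These were 9 enzymes and 12 other HIF targets, and the smallest adjusted p among them was 0.498 (Bnip3 and Vegfa). Leaving out FA replicate 2 moved the median to -0.04, with 24 members below 0. It was -0.12 without FA replicate 3, and -0.14, -0.19 and -0.19 without PBS replicate 1, 2 or 3. In those 5 cases 0 or 1 member had an unadjusted p under 0.05, where 127 to 442 of all 15023 genes did. No member passed the adjusted threshold in any of the 6 cases.

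Spread within the FA group was wider than within the PBS group for all 35 members on the log2 scale, as it was for 70.0% of all genes. The median SD of the members was 0.40 in the FA group and 0.10 in the PBS group, and over all genes tested it was 0.18 in the FA group and 0.11 in the PBS group. The ratio of FA replicate 1 to FA replicate 2 ran between 1.10 for Hif1a and 3.86 for Adm, with a median of 1.52 (1.00 over all genes), while the highest PBS tumour exceeded the lowest by a median factor of 1.13. FA replicate 3 split the members: its ratio to FA replicate 2 was 0.556 for Car9 and 0.698 for Kdm3a, yet 2.89 for Adm and 2.18 for Ankrd37. Adm was singled out here after its values were seen.

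**Figure D3:**
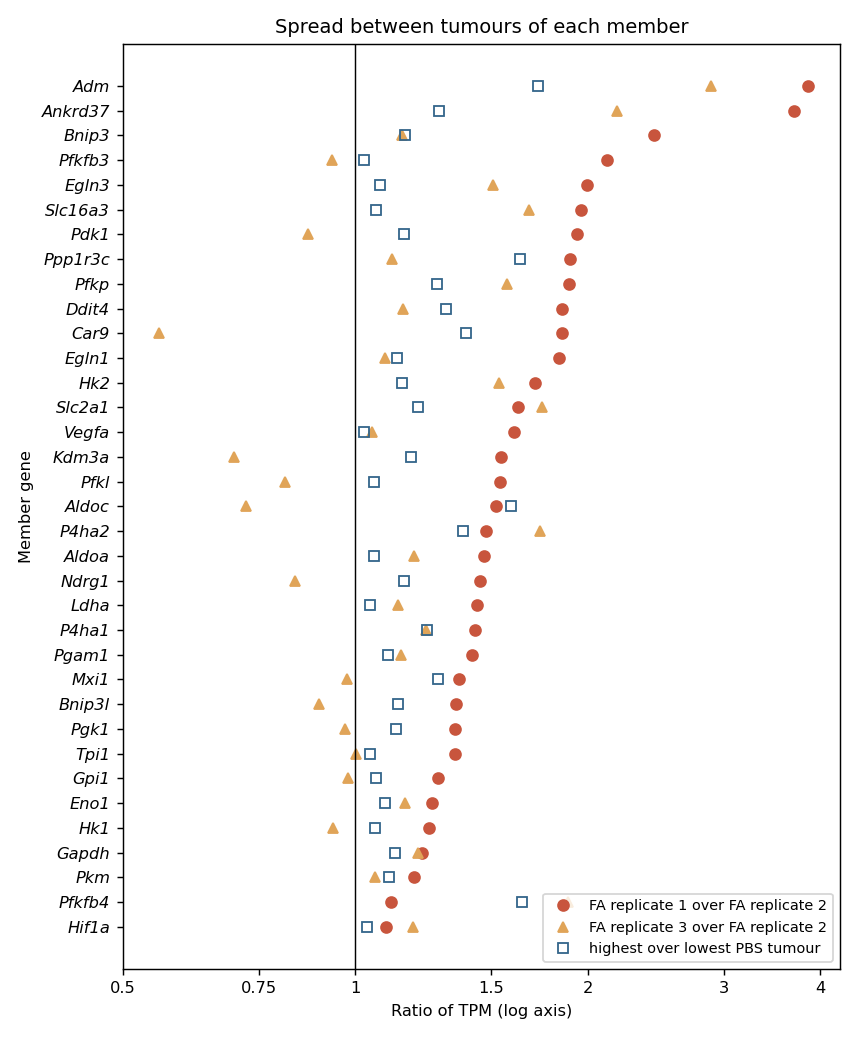
Ratios of TPM between tumours (horizontal log axis) for each member (vertical axis): FA replicate 1 over FA replicate 2 (filled circles), FA replicate 3 over FA replicate 2 (triangles) and the highest over the lowest PBS tumour (open squares). All circles are above 1, between 1.10 and 3.86, while the triangles fall on both sides of 1.

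Glucose enters through Slc2a1 (the glucose transporter GLUT1), which had 120, 74.1 and 129 TPM in the FA group against 116, 96.5 and 111 TPM in the PBS group. FA replicate 2 was the lowest and FA replicate 3 the highest of the 6. Its log2 difference was -0.03 ± 0.21 (SE), with an interval of -0.54 to 0.47. Slc16a3, the lactate exporter MCT4, was at 59.8, 30.5 and 51.3 TPM in the FA group against 55.0, 51.6 and 52.9 TPM in the PBS group. Here the PBS tumours were nearly level and FA replicate 2 alone was far below them, at 57.4% of their mean. Slc2a1 supplied 94.8%, 95.4% and 96.6% of the TPM of Slc2a1, Slc2a3 and Slc2a4 together in the FA group, against 95.5%, 94.5% and 95.3% in the PBS group.

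The 14 glycolytic enzymes together took 1.24%, 0.948% and 1.06% of all TPM in the FA group against 1.17%, 1.09% and 1.18% in the PBS group. On the TPM scale, which is per length, Gapdh led the members with a mean of 3357 TPM, followed by Pkm at 1280, Tpi1 at 1144, Ldha at 1021, Aldoa at 938, Eno1 at 928, Pgk1 at 822, Pgam1 at 734 and Gpi1 at 514 TPM. Among these, neighbours such as Ldha and Aldoa or Aldoa and Eno1 lay closer than the SD between FA tumours. The entry and commitment steps stood far lower, with the hexokinases Hk1 and Hk2 at 94.3 and 70.2 TPM and the phosphofructokinases Pfkl and Pfkp at 118 and 84.9 TPM. All 14 log2 differences were below 0 (49.3% of all genes), between -0.59 for Aldoc and -0.02 for Gapdh, with a median of -0.14. Without FA replicate 2, those of Hk2, Pfkp, Gapdh and Pkm were above 0 and those of the other enzymes still below it.

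Ldha, which reduces pyruvate to lactate, had 1174, 817 and 929 TPM in the FA group against 1069, 1046 and 1092 TPM in the PBS group. FA replicate 1 exceeded every PBS tumour and the other FA tumours were below all of them. The log2 difference was -0.15 ± 0.13, with an interval of -0.46 to 0.15. Pgk1, the first ATP-forming enzyme of the pathway, was at 937, 695 and 674 TPM in the FA group against 921, 816 and 891 TPM in the PBS group. Its log2 difference was -0.20 ± 0.13. FA replicate 1 was again the highest tumour, and FA replicate 3 was the lowest. Aldoc, an aldolase isozyme best known from brain, had 41.5, 27.3 and 19.7 TPM in the FA group against 49.9, 50.2 and 31.6 TPM in the PBS group. Only FA replicate 1 reached into the PBS range, and with a log2 difference of -0.59 ± 0.29 Aldoc had the smallest p of all members.

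Gapdh and Pkm, chosen here after their values were seen, had the lowest ratios of FA replicate 1 to FA replicate 2 among the enzymes. Gapdh, which oxidises glyceraldehyde phosphate and often serves as a normalisation standard, was at 3567, 2924 and 3525 TPM in the FA group against 3516, 3126 and 3486 TPM in the PBS group. Pkm, which makes pyruvate, had 1392, 1170 and 1241 TPM in the FA group against 1322, 1213 and 1344 TPM in the PBS group. These ratios were 1.22 and 1.19, and among the other 12 enzymes they reached 1.89 for Pfkp. Pfkl, the liver-type phosphofructokinase, reached 152 TPM in FA replicate 1 but 98.9 and 80.2 TPM in FA replicates 2 and 3, whereas its PBS tumours ranged between 124 and 131 TPM.

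Isozyme shares differed between tumours by amounts that depended on the enzyme. Ldha made up 99.2% to 99.8% of Ldha and Ldhb together over the 6 tumours, and Aldoa 94.7% to 97.5% of the aldolases. The share of the minor lactate dehydrogenase gene Ldhb ranged between 0.219% and 0.771%, and that of Aldoc between 2.19% and 5.03%. Hk2, the hexokinase that HIF induces, held 43.9%, 36.2% and 47.8% of hexokinase TPM in the FA group against 39.8%, 43.9% and 39.8% in the PBS group. Its share was lowest in FA replicate 2, and the groups overlapped. Pfkm, the muscle phosphofructokinase and not a member, stayed between 37.0 and 40.2 TPM in all tumours while Pfkl and Pfkp were low in FA replicate 2, so its share was highest there, at 20.5%, against 13.4% in FA replicate 1. The muscle enolase Eno3 made up 5.04% of enolase TPM in FA replicate 3 and 1.81% to 2.30% elsewhere, beside the high muscle markers of that tumour; what muscle added to Eno3 was not tested.

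Regulators of flux differed more among FA tumours than among PBS tumours. Pfkfb3, which makes the activator of phosphofructokinase, had 60.5, 28.6 and 26.7 TPM in the FA group against 40.6, 41.6 and 41.5 TPM in the PBS group. FA replicate 1 stood at 147% of the PBS mean and the other FA tumours at 69.4% and 64.8%. The mean log2 difference was -0.19 ± 0.29, with an interval of -0.89 to 0.51. Pdk1 shuts pyruvate dehydrogenase and so keeps pyruvate from the citrate cycle. It had 97.6, 50.4 and 43.9 TPM in the FA group against 81.7, 71.0 and 70.6 TPM in the PBS group. FA replicate 1 was again the highest and FA replicate 3 the lowest. Pfkfb4, which acts on the same activator as Pfkfb3, had another order: FA replicate 3 was highest at 10.0 TPM, and its other values lay between 4.81 and 7.91 TPM.

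**Figure D4:**
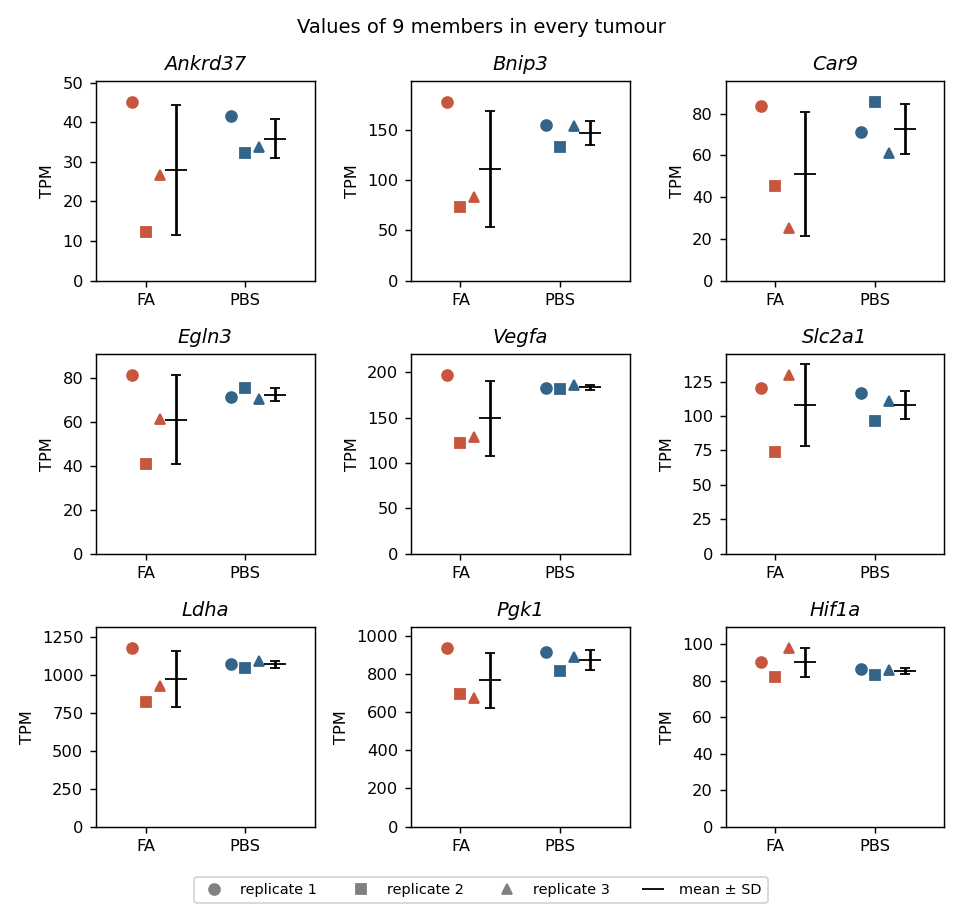
TPM (vertical axes, starting at 0) of 9 members in each FA tumour (left in each panel) and PBS tumour (right), with replicate number by symbol and mean ± SD (n = 3) in black. The PBS tumours lie between the highest and lowest FA tumours in every panel except Car9, where a PBS tumour is the highest. Hif1a is nearly level.

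Among the oxygen sensing genes, Hif1a varied little and the hydroxylases Egln1 and Egln3 varied more. Hif1a mRNA was nearly even, at 90.1, 82.3 and 97.8 TPM in the FA group against 86.4, 83.4 and 86.1 TPM in the PBS group. FA replicate 3 was the highest. The log2 difference was 0.07 ± 0.08, with an interval of -0.11 to 0.26. Egln3, an oxygen-dependent prolyl hydroxylase that is itself a HIF target, had 81.3, 40.8 and 61.5 TPM in the FA group against 71.6, 75.7 and 70.4 TPM in the PBS group. Its FA tumours spread over a factor of 1.99 and its PBS tumours over 1.08. Egln1, the main hydroxylase acting on HIF, was at 95.1, 51.8 and 56.7 TPM in the FA group against 83.6, 73.9 and 83.2 TPM in the PBS group. Egln2, the third of the family and not among the 35 members, had 35.2, 35.4 and 33.8 TPM in the FA group against 36.1, 36.3 and 35.8 TPM in the PBS group, so its FA tumours were just below its PBS tumours. Its log2 difference was -0.05 ± 0.07.

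Bnip3 and Bnip3l, related receptors that mark mitochondria for removal, differed in how far they spread. Bnip3 had 178, 73.0 and 83.8 TPM in the FA group against 155, 134 and 154 TPM in the PBS group. FA replicates 2 and 3 held 49.5% and 56.8% of the PBS mean, and FA replicate 1 held 121%. The log2 difference was -0.51 ± 0.32, with an interval of -1.27 to 0.24. Bnip3l was at 190, 141 and 126 TPM in the FA group against 177, 166 and 156 TPM in the PBS group, and its log2 difference was -0.15 ± 0.15. A processed copy listed as Bnip3l-ps had 9.16 to 15.2 TPM, so some reads of Bnip3l may be assigned to it.

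Among secreted and surface proteins, Vegfa, the main angiogenic growth factor, had 197, 123 and 129 TPM in the FA group against 183, 181 and 186 TPM in the PBS group. Its PBS values had an SD of 2.61 TPM, and the log2 difference was -0.33 ± 0.17, with an interval of -0.74 to 0.09. Car9, a membrane carbonic anhydrase that handles the acid made by glycolysis, was at 83.6, 45.1 and 25.1 TPM in the FA group against 71.1, 85.5 and 61.3 TPM in the PBS group. Both lower FA tumours were below every PBS tumour, and FA replicate 3 held 34.6% of the PBS mean. Its log2 difference was -0.64 ± 0.40. That value became -1.07 without FA replicate 1, -0.64 without FA replicate 2 and -0.22 without FA replicate 3. Adm, the vasodilator peptide adrenomedullin, had 21.8, 5.65 and 16.3 TPM in the FA group against 24.9, 14.4 and 17.5 TPM in the PBS group, so FA replicate 2 alone was far below the rest. Endothelial marker sums did not follow Vegfa: they were lowest in FA replicate 1, where Vegfa was highest, and highest in FA replicate 3.

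P4ha1 and P4ha2 are subunits of the enzyme that hydroxylates proline in collagen. P4ha1 had 89.1, 62.4 and 77.2 TPM in the FA group against 76.6, 72.0 and 89.3 TPM in the PBS group. P4ha2 was highest in FA replicate 3, at 78.0 TPM, and lay between 45.0 and 70.5 TPM elsewhere. Fibroblast markers were highest in that tumour too, and their part in P4ha2 was not tested. Kdm3a, a histone demethylase, had 99.8, 64.6 and 45.1 TPM in the FA group against 81.3, 80.2 and 68.8 TPM in the PBS group, with FA replicate 3 the lowest.

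Ankrd37, a small ankyrin-repeat gene used as a hypoxia marker, had 45.0, 12.2 and 26.6 TPM in the FA group against 41.5, 32.4 and 33.8 TPM in the PBS group. FA replicate 2 held 34.0% of the PBS mean and FA replicate 1 held 126%, and the log2 difference was -0.52 ± 0.42. Ddit4, which restrains the growth kinase mTORC1, was at 109, 58.8 and 67.9 TPM in the FA group against 86.4, 110 and 113 TPM in the PBS group. FA replicate 1 stayed within the PBS range and the other FA tumours were below it, with a log2 difference of -0.43 ± 0.23. Ndrg1, a stress-induced gene, averaged 218 ± 63.6 TPM in the FA group against 242 ± 17.8 TPM in the PBS group (SD, n = 3 each). Mxi1, a MYC antagonist, averaged 44.5 ± 8.68 TPM in the FA group against 48.7 ± 6.13 TPM in the PBS group. Ppp1r3c, which promotes glycogen storage, averaged 2.66 ± 0.974 TPM in the FA group against 3.15 ± 0.775 TPM in the PBS group.

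Glycolytic enzymes and other HIF targets were both highest in FA replicate 1 and lowest in FA replicate 2 and then FA replicate 3, but by different amounts. The median deviation of the enzymes from their 6-tumour mean (log2) was 0.21, -0.23 and -0.11 in the FA group against 0.08, 0.03 and 0.09 in the PBS group. For the other HIF targets it was 0.31, -0.42 and -0.29 in the FA group against 0.19, 0.08 and 0.11 in the PBS group. The median ratio of FA replicate 1 to FA replicate 2 was 1.38 for the enzymes and 1.84 for the other targets. The median log2 difference of FA against PBS was -0.14 for the enzymes and -0.21 for the other targets, a gap of 0.08, and without FA replicate 1 the gap was 0.24. No test was run on this gap, since the lists were chosen with results of these tumours known.

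**Figure D5:**
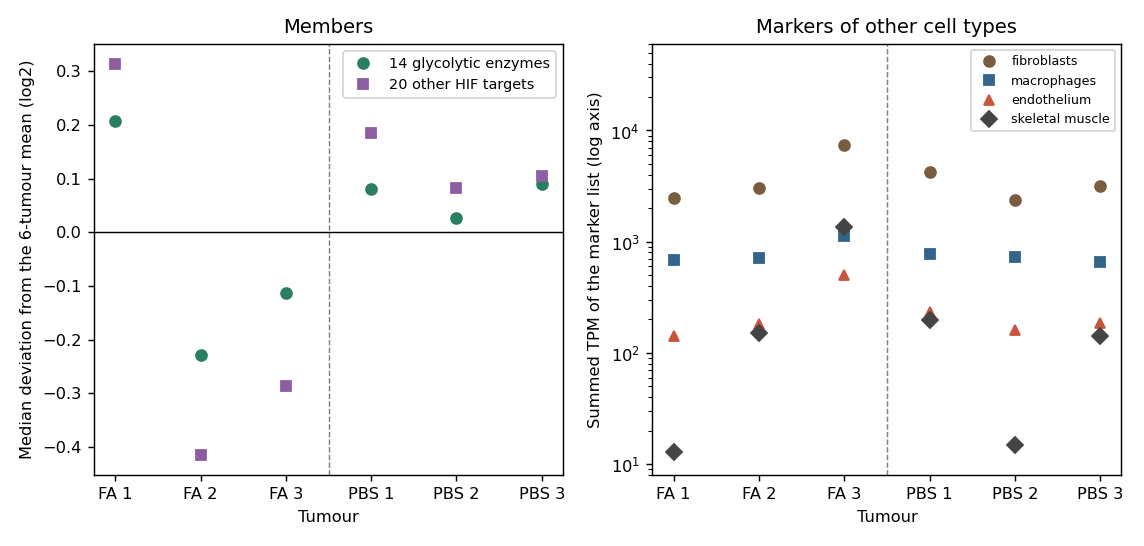
Left: median deviation from the 6-tumour mean (vertical axis, log2) of the 14 glycolytic enzymes and the 20 other HIF targets in each tumour (FA left of PBS). Right: summed TPM of 4 marker lists (vertical log axis) in the same tumours. The members are lowest in FA replicate 2, whose marker sums lie near those of PBS tumours, while fibroblast, endothelial, macrophage and muscle sums are highest in FA replicate 3.

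Markers of other cell types also differed between the FA tumours. FA replicate 1, highest for most members, had the lowest endothelial and skeletal muscle sums of the 6 tumours, and FA replicate 3 had the highest fibroblast, endothelial, macrophage and muscle sums. FA replicate 2, the lowest for most members, had an endothelial sum of 184 TPM and a fibroblast sum of 3011 TPM, both inside the PBS ranges. Epithelial marker sums were 5823, 6045 and 6123 TPM in the FA group against 5223, 6160 and 5440 TPM in the PBS group. Single epithelial markers went apart in FA replicate 3. Cdh1 (253 TPM), Msln (232 TPM), Muc1 (238 TPM) and Sox9 (33.9 TPM) were at their lowest of the 6 tumours there. Krt19, Krt8, Epcam and Cldn4 were at their highest there, and Krt18 and Krt7 at neither end. The part of all these markers in the members' values was not tested.

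Of 39 further HIF targets, 0 were higher and 0 lower past the threshold. Their median log2 difference was -0.09, with 29 below 0 (49.3% of all genes). More TPM in FA replicate 1 than in FA replicate 2 was seen for 34 of 39 (50.1% of all genes). The circadian repressor Bhlhe41 alone had an unadjusted p under 0.05 (1.28% of all genes), and its adjusted p by limma was 1.0. It was at 16.1, 12.6 and 12.9 TPM in the FA group against 20.4, 17.5 and 19.7 TPM in the PBS group. Its groups did not overlap, nor did those of Egln2, with FA lower in both (2.22% of all genes). The related Bhlhe40 had 170, 90.6 and 110 TPM in the FA group against 146, 164 and 183 TPM in the PBS group, with FA replicate 1 inside the PBS range. Tmem45a, another hypoxia-induced gene, had 18.8, 10.8 and 17.8 TPM in the FA group against 15.4, 23.8 and 20.8 TPM in the PBS group. Angptl4, chosen here after its values were seen, had another order. This lipoprotein lipase inhibitor gene had 55.0, 62.6 and 128 TPM in the FA group against 76.0, 50.5 and 59.1 TPM in the PBS group.

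Genes of neighbouring routes gave no call either. Of 27 genes of pyruvate import, pyruvate dehydrogenase and the citrate cycle, 8 had more TPM in FA replicate 1 than in FA replicate 2, as had 2 of 7 pentose phosphate genes and 7 of 15 tested isozymes of glycolysis outside the members. Over all genes tested this share was 50.1%. The median log2 differences of these 3 lists were -0.02, 0.00 and 0.07. Mpc2, a subunit of the mitochondrial pyruvate carrier, averaged 36.9 ± 1.58 TPM in the FA group against 42.2 ± 4.86 TPM in the PBS group. Taldo1, a pentose phosphate enzyme, averaged 117 ± 27.7 TPM in the FA group against 105 ± 3.24 TPM in the PBS group. The hexokinase Hk3, chiefly of blood cells, averaged 2.83 ± 0.647 TPM in the FA group against 2.09 ± 0.205 TPM in the PBS group. Its groups did not overlap, with FA higher (2.48% of all genes). Bpgm, a mutase best known from red cells, had 126, 127 and 70.6 TPM in the FA group against 133, 130 and 144 TPM in the PBS group. All FA tumours were thus below all PBS tumours (2.22% of all genes). Of 12 tested subunits and regulators of HIF, 0 passed, and Arnt, the partner of the HIF alpha subunit, was at 58.1, 49.6 and 35.6 TPM in the FA group against 52.3, 52.0 and 54.0 TPM in the PBS group.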

How the data were processed

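The authors deposited 1 table of TPM, values per transcript length with one common total for each tumour, with 55357 genes and 1 column per tumour. Per the submitters' processing notes, FastQC, STAR, featureCounts and RSEM were used; for these data the version and role of each tool, the genome build and the annotation were not given in the sources used here. Genes therefore carry no coordinates and promoters carry those of the RefSeq table. Per the labels' protocols, 4 µg of RNA of integrity above 8 went into stranded total RNA libraries with 12 PCR cycles. TPM keeps no depth, so read numbers are unknown and no counting interval is given. Reads of near-identical gene copies can be shared with a member. Copies named after their member reached 10.7% of Bnip3l, 4.96% of Pgam1, 2.69% of Eno1 (Eno1b) and 1.24% of Ldha. Copies under other names were not counted.

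Each column was assigned to its tumour by the name in that sample's description, and group and replicate came from the titles. FA was compared with PBS on log2(TPM + 1) by limma 3.58.1 in R 4.3.3, on 15023 genes averaging 1 TPM or more, with no covariate, empirical Bayes variances with a trend on expression, two-sided tests and Benjamini-Hochberg adjustment over all of them at a threshold of 0.05. The pseudocount understates differences of genes with few TPM. Errors are SD beside TPM and SE beside log2 differences, intervals are at 95%, and percentages beside members' counts are over all genes tested. The fit was tested on simulated data.

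Members, lists and tests were chosen with earlier results of these data known. Members with values in every tumour are 9 chosen genes (Vegfa, Car9, Slc2a1, Ldha, Pgk1, Bnip3, Egln3, Ankrd37 and Hif1a) and, in each of 8 roles, the 2 with the smallest p. Gapdh, Pkm and Adm were added after their values were seen; other members have a value where their role is described, and other lists up to 3 genes by the smallest p. Alternatives were other pseudocounts, filters, scalings and spreads, a replicate block, a threshold of 0.1 and leaving out each tumour.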

Additional observations from a re-analysis of the deposited data

How the results depend on the processing

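The counts of 0 members higher and 0 lower in FA held in all alternatives: pseudocounts of 0.5 and 0.1, no filter, a mean of at least 5 TPM (which leaves 34 members), array weights, quantile normalization, median-ratio rescaling, variances without a trend, rescaling that left out mitochondrial genes and the 50 most abundant genes, an adjusted p under 0.1, the replicate block and leaving out each tumour. Apart from leaving out a tumour, the median log2 difference of the members stayed between -0.19 and -0.15. Leaving out 1 tumour gave -0.35 to -0.04, and the difference of enzymes minus other targets (0.08) became 0.044 to 0.24, the last without FA replicate 1. The chosen genes and those with the smallest p in their role changed sign in 8 cases, none past a threshold. One was Kdm3a with array weights (0.0019), whose estimation stopped before full convergence. The rest came from leaving out 1 tumour: Slc2a1 (-0.18 to 0.22), Slc16a3 (-0.42 to 0.058), P4ha1 (-0.18 to 0.070), Pfkfb3 (-0.56 to 0.016) and Kdm3a (-0.50 to 0.069). Members outside that choice changed sign too. Without FA replicate 2, Hk2 (0.18), P4ha2 (0.18), Gapdh (0.073), Pfkp (0.058), Adm (0.029) and Pkm (0.025) were above 0. Without FA replicate 3, Pfkfb4 (-0.10) was below 0. The cause was not tested.

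With the replicate block, calls stayed at 0 and 1 member had an unadjusted p under 0.05, where 178 of all 15023 genes did. Deviations of same-numbered tumours correlated at -0.21, 0.05 and -0.02, and no FA tumour correlated best with the PBS tumour of its own number. Such correlations over so few tumours cannot tell whether the numbers pair the tumours. What depth limits cannot be told from TPM.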
